A study of Mus musculus with 4 samples.

Results

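The 475 regions described here are the stretches of H3K36me3 enrichment that lie close to the start of a protein-coding gene in mouse embryonic stem (ES) cells. They were taken from a deposited list of 31593 H3K36me3 regions by 3 conditions: the region lies on an autosome, is at most 5 kb wide, and overlaps the 1 kb on either side of an annotated gene start. Of the 31399 autosomal regions, 29557 were at most 5 kb wide, and 1.61% of these met the third condition. The cells were of 129S1/SvImJ origin and were wild type (WT) or carried a glycine-to-arginine change at residue 34 of histone H3.3 in one copy of H3f3a (H3f3a+/G34R), with both copies of H3f3b intact. The mutant copy was brought under the endogenous H3f3a promoter by Cre recombination of a targeted minigene, and the cells were kept below passage 20. Each genotype gave 1 chromatin immunoprecipitation library for H3K36me3 and 1 for H3K9me3, a mark of silenced chromatin. Each list pools both genotypes, so a region is present if either genotype passed the authors' threshold. No read depth, height or value per sample comes with a region, and the genotypes cannot be compared. A region lay somewhere in 35.2% of all protein-coding genes, in 9 of 10 ES cell marker genes (among them Pou5f1, Nanog and Esrrb, which keep the cells pluripotent) and in 0 of 3 primitive endoderm and 0 of 3 fibroblast feeder markers (0 of 3 allows up to 56.1%), while 1 of 2 trophectoderm markers, Eomes, had one.

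H3K36me3 is laid down by SETD2, an enzyme that travels with elongating RNA polymerase II, and therefore accumulates over the bodies and 3′ ends of transcribed genes. Active gene starts carry other marks, above all H3K4me3, and are normally poor in H3K36me3. A region close to a start is for that reason the unusual case, and the genes around it (a neighbour that ends there, a host gene that runs across, a gene too short to separate its ends) are part of its description.

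The underlying annotation was GENCODE vM1 on mm9 (NCBIM37), with 21418 autosomal protein-coding gene starts, each taken as the outermost base of its gene. A region was listed near 485 of them, which is 2.26% (95% Wilson interval 2.07 to 2.47%). Intervals cover counting error only, since neighbouring starts and regions are not replicates. Of the 475 regions, 432 touched the window of 1 start, 42 those of 2 starts and 1 those of 3 or more. A further 100 starts were reached only by regions wider than 5 kb. H3K9me3 regions under the same conditions lay near 4091 starts, or 19.1%, and 83 starts had both marks.

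Each start was placed in the first of 5 arrangements that applied. The start lay inside another protein-coding gene, or within 2 kb of the 3′ end of another gene (gene end nearby), or within 1 kb of a start on the other strand (divergent), or belonged to a gene of at most 5 kb (short), or to none of these (isolated).

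Over all arrangements together, CG dinucleotides were fewer at starts that lay inside a region than at other starts with a region. Only 92 starts, 0.430% of all, had their own base inside one of the regions. In the window from 250 bases before to 50 after the start, these 92 held a median of 5 CG dinucleotides (quartiles 3 to 7), where all starts held 12 (quartiles 3 to 23). The contrast with all starts differed between the arrangements defined above. At short genes it turned, with 6 CG (4 to 9) at 15 starts inside a region and 3 (1 to 8) over all short-gene starts. Against starts with a region it did not turn there, as the 103 short-gene starts with a region held 20 (9 to 26). Inside another gene the 35 starts held 5 (3.5 to 7.5), against 6 (4 to 14) over its starts with a region and 11 over all its starts. Regions are made of 200 bp bins, and for 53 of the 92 starts the region began in the very bin that holds the start, so that its bases upstream of the start come with the bin. The median was 4 CG (3 to 7) at these 53 and 6 (3 to 7.5) at the 39 whose region began in an earlier bin. Shown first, as cases where a region held the start base, are 5 of the short and isolated genes named below with the most listed bases near such a start: Dux at chr10:57688435-57688654 on the minus strand, Zfp936 at chr7:50442340-50442559 on the plus strand, Gnas at chr2:174109621-174109840 on the plus strand, Sipa1l2 at chr8:128016591-128016810 on the minus strand and Fat1 at chr8:46035362-46035581 on the plus strand. Each runs 5′ to 3′ along the gene from 200 bases before the start to the first 20 bases of the gene, in the NCBIM37 genome, with CG in capitals. Of the 5 regions, that of Gnas began in an earlier bin than the start and the others in the bin of the start.

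Dux: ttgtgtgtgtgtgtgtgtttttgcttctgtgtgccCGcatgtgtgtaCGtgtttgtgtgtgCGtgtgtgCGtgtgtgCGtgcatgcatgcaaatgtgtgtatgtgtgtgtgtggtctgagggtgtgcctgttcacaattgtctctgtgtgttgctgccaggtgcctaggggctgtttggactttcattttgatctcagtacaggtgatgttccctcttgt
Zfp936: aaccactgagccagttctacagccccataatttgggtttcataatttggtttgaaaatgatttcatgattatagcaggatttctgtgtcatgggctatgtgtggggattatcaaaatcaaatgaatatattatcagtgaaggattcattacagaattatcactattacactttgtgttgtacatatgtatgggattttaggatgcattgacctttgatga
Gnas: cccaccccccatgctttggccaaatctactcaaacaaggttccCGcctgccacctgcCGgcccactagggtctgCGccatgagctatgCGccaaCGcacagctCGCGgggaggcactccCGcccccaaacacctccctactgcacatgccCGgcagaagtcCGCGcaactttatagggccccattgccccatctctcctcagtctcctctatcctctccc
Sipa1l2: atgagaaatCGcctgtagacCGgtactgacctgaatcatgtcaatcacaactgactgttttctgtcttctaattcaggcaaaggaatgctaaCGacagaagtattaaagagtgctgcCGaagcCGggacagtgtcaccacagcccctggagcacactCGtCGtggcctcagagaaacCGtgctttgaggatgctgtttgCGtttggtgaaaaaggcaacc
Fat1: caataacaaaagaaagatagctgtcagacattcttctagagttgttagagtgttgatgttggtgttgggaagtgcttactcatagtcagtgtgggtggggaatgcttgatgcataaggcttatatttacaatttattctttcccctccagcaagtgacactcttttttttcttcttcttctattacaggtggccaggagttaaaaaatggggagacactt

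Zfp936 codes for a zinc finger protein, Dux for a double homeobox factor of cleavage-stage embryos, Gnas for the stimulatory G protein and Fat1 for a giant cadherin. In the order shown the windows held 5, 0, 11, 9 and 0 CG, of which the 2 zeros are at Zfp936 and Fat1. The same windows are given next for 2 ribosomal protein genes whose bodies were almost filled by a region while the start was left free, with 89.4% of the gene covered in Rpl27a and 96.9% in Rpl23. They are Rpl23 at chr11:97643732-97643951 on the minus strand and Rpl27a at chr7:116662461-116662680 on the plus strand.

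Rpl23: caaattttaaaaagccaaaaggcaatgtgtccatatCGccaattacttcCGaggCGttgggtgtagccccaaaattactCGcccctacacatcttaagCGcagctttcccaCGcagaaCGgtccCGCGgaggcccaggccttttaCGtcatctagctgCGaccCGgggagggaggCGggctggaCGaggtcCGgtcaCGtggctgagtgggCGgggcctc
Rpl27a: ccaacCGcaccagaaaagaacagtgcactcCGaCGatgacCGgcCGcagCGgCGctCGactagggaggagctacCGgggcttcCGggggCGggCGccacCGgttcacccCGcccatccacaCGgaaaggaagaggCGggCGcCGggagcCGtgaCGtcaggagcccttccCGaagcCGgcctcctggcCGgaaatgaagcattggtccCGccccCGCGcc

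These windows held 17 and 26 CG, and none of their bases lay in a region. Over this window the median was 3 CG for the 92 starts inside a region, 12 for the 393 starts that had a region beside them, 9 for all starts and 16 for ribosomal protein genes with a region. The last set shows how a region near a start can belong to the gene before it. In these tandem pairs the upstream gene ends 65, 100 and 118 bases before the next start, among the shortest of the 13 such distances that could be shown. The sequence runs from the last 20 bases of the upstream gene to the first 10 of the downstream gene: Dhrs13 to Flot2 at chr11:77851349-77851442 on the plus strand, Atp6v0c to Amdhd2 at chr17:24300724-24300852 on the minus strand and Sec24c to Fut11 at chr14:21514053-21514199 on the plus strand.

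Dhrs13 to Flot2: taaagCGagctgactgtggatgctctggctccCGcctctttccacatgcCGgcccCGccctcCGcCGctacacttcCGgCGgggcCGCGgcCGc
Atp6v0c to Amdhd2: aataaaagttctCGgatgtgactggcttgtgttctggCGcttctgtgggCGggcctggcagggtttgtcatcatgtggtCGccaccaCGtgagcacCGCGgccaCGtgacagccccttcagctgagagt
Sec24c to Fut11: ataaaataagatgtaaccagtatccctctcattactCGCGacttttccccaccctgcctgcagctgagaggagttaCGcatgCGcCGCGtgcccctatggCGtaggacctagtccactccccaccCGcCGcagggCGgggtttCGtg

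No base of the 3 junctions was in a region. The region in Dhrs13 stopped 833 bp before Flot2, that in Atp6v0c, a subunit of the vacuolar proton pump, 668 bp before Amdhd2, and that in Sec24c, a coat protein of secretory vesicles, 190 bp before Fut11. Each of the 3 regions thus stopped before the end of the upstream gene.

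The shares differed between gene arrangements. Starts with a gene end nearby had a region in 128 of 1157 cases, 11.1% (9.38 to 13.0%), and starts inside another gene in 127 of 2243, 5.66% (4.78 to 6.70%). The share was 2.94% for divergent starts (41 of 1393), 2.45% for short genes (103 of 4198) and 0.692% for isolated starts (86 of 12427, 0.561 to 0.854%). Against isolated starts the difference was 10.4 percentage points (8.68 to 12.3) for a gene end nearby, 4.97 (4.07 to 6.01) inside another gene, 2.25 (1.47 to 3.28) for divergent starts and 1.76 (1.31 to 2.29) for short genes. The share was above that of isolated starts on 18, 19, 10 and 19 of the 19 autosomes, in the same order. Divergent and short starts had overlapping intervals. The sizes and their order depended on the settings. With a window of 2 kb the difference was 14.5 points for divergent starts and 10.1 inside another gene. With gene ends counted within 5 kb the divergent difference was 0.531 points (0.0214 to 1.34).

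**Figure D1:**
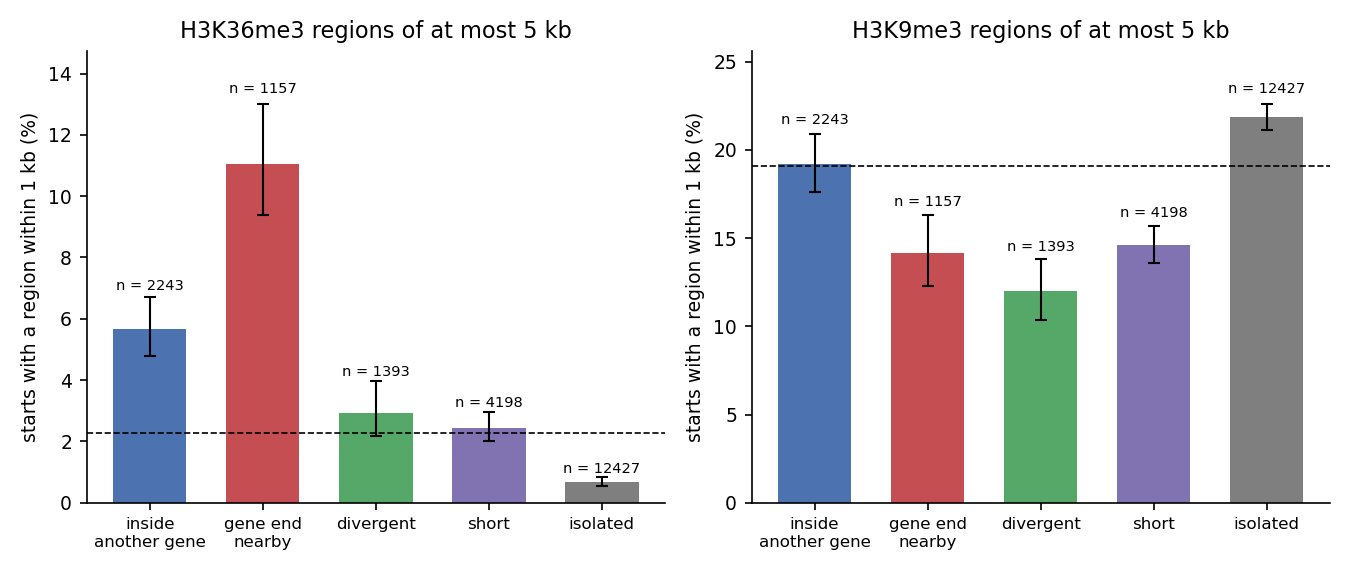
Share of autosomal protein-coding starts with an H3K36me3 (left) or H3K9me3 (right) region of at most 5 kb within 1 kb, by arrangement. Bars give the percentage, error bars the 95% Wilson interval, n the number of starts and the dashed line the share over all starts (2.26% and 19.1%). The H3K36me3 share was highest with a gene end nearby (11.1%) and lowest at isolated starts (0.692%), where the H3K9me3 share was highest (21.9%).

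H3K9me3 followed another order at the same starts. It was listed near 21.9% of isolated starts, 19.2% of starts inside another gene, 14.6% of short genes, 14.2% with a gene end nearby and 12.0% of divergent starts. Isolated starts were thus lowest for H3K36me3 and highest for H3K9me3. Over bins that overlap genes, H3K9me3 was listed in 15.7% at isolated, 11.3% at short, 9.82% at inside, 8.07% at gene end and 5.18% at divergent starts, so that short genes moved above starts inside another gene.

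The lists hold bins that overlap genes only, so bases upstream of a start could be listed only in the bin of the start itself or where another gene reaches their bin. Annotated genes covered 96.5% of the 200 bp bins around starts inside another gene, 73.0% with a gene end nearby, 96.1% around divergent, 53.1% around short and 58.0% around isolated starts. Over these genic bins alone the listed share was 4.01% with a gene end nearby, 2.35% inside another gene, 1.29% for short genes, 0.683% for divergent and 0.342% for isolated starts. Divergent starts, with nearly full cover by genes, thus came below short genes on this measure. In the windows that lay wholly in annotated genes, a restriction added after the data were seen, isolated starts had a region in 9 of 532 cases, short genes in 3 of 119 and divergent starts in 0 of 19. The difference of short from isolated starts was then 0.829 points (-1.40 to 5.53), while starts with a gene end nearby differed by 11.1 points (5.23 to 20.4) and those inside another gene 4.36 (2.58 to 5.75).

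Among positions whose bin overlaps a gene, the listed share dipped at the start. For gene ends nearby it was 22.3% at 2.3 kb upstream of the start (216 of 967), 4.71% at 300 bp upstream (17 of 361), 1.47% at 100 bp downstream and 18.6% at 2.9 kb downstream. Divergent starts went from 18.1% at 4.9 kb on the side of the partner to 0.251% at 100 bp upstream (3 of 1195) and 18.2% at 4.9 kb downstream. The dip was shallower inside another gene, from 10.4% to 1.54% and back to 10.3% at the same 3 positions. Short genes had 0.500% at 100 bp downstream and 15.9% at 4.1 kb downstream (151 of 952). At 900 bp upstream they had 0 of 187, which allows up to 2.01%, and few of these starts have another gene so near by the definition of the arrangement. Isolated starts climbed from 0.233% at 100 bp to 8.15% at 4.9 kb downstream without reaching a plateau. H3K9me3 over all starts was highest just downstream of the start, with 15.3% at 300 bp and 15.4% at 500 bp.

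**Figure D2:**
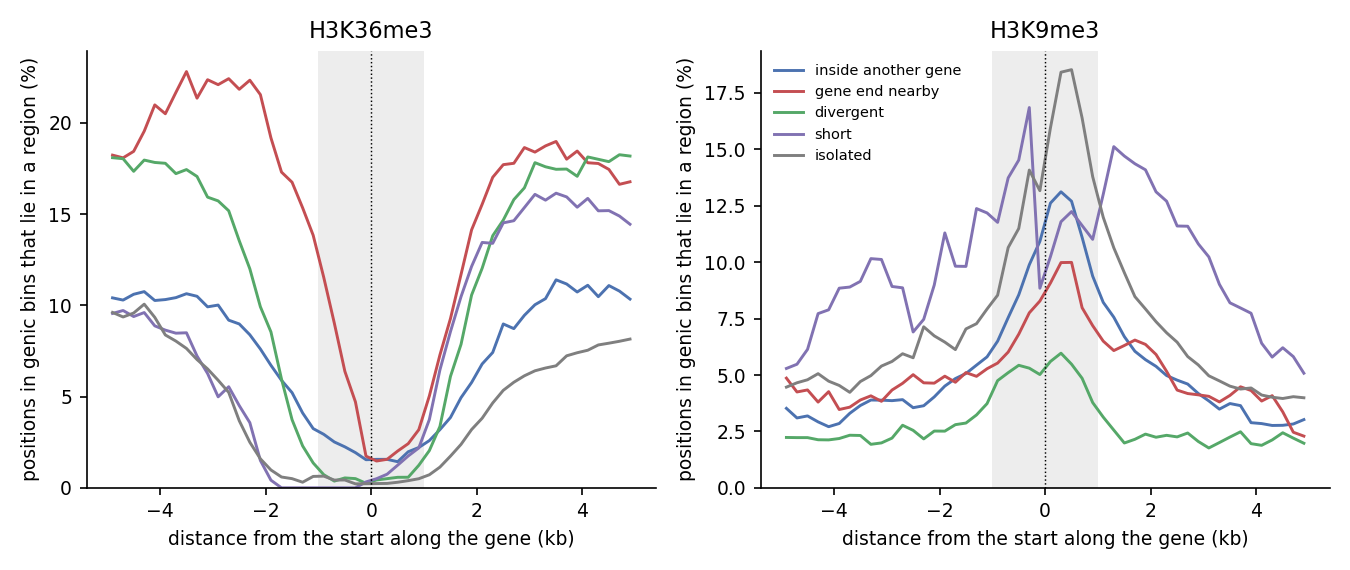
Percentage of positions that lie in a region of at most 5 kb, among those whose 200 bp bin overlaps a gene, at each distance from the start (every 200 bp from 4.9 kb upstream to 4.9 kb downstream), for H3K36me3 (left) and H3K9me3 (right), one line for each arrangement; the grey band is the 1 kb on either side that chose the regions. The H3K36me3 lines dip at the start, to 0.251% at 100 bp upstream for divergent starts, and the H3K9me3 lines are highest within 1 kb of it, where the upstream values of short genes rest on few positions (178 at 300 bp).

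Relative to the nearest start, 253 of the 475 regions lay wholly downstream, 132 wholly upstream and 90 held the start base. Of these 90, 53 began in the bin of the start and 37 in an earlier one, of which 28 were at starts inside another gene. The upstream ones came almost entirely from the first pair of arrangements, with 75 of 131 regions for gene ends nearby, 53 of 127 inside another gene, 4 of 90 at isolated starts and none of the 103 at short genes or the 24 at divergent starts. At divergent starts this follows from the placing at the nearest start, since a region in the partner's body counts as downstream of the partner. In all, 134 regions had no base in the gene whose start they were close to. Of the bases in regions with a gene end nearby, 30.5% were in the gene of the start and 68.1% in another protein-coding gene, and a base can count for both. For short genes these were 95.6% and 1.79%. All 15 of the short genes' regions that held the start base began in its bin, as did 22 of 24 at isolated starts, 10 of 16 with a gene end nearby and 6 of 34 inside another gene.

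**Figure D3:**
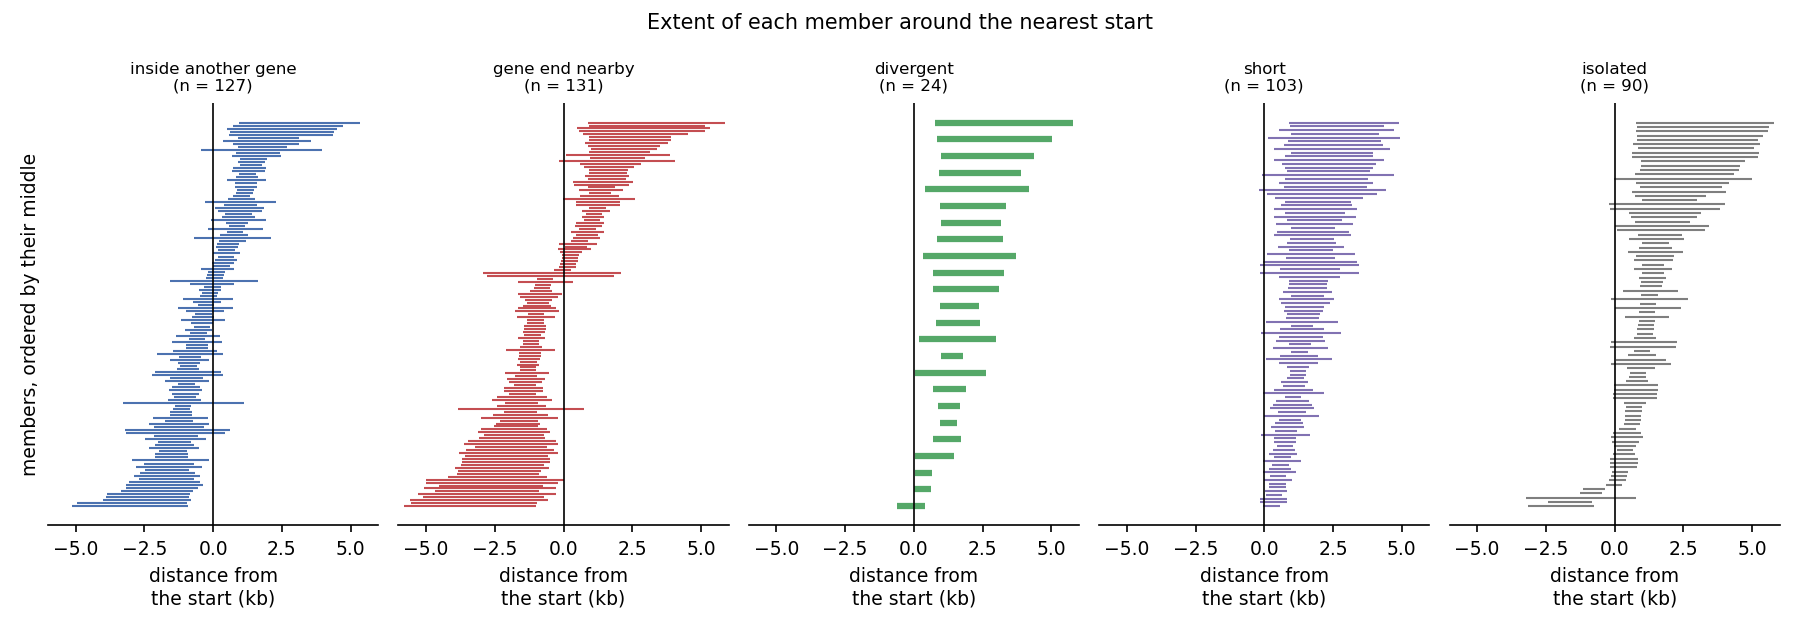
Extent of each of the 475 regions, as 1 horizontal line from its upstream to its downstream edge in kb from the nearest start (vertical line at 0), in 5 panels by arrangement and ordered by the region's middle. Regions with a gene end nearby lie mostly on the upstream side (75 of 131 wholly so), and those at short genes on the downstream side (88 of 103 wholly so).

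Starts with a gene end nearby were mostly tandem pairs, where the neighbour reads in the same direction. These had a region in 106 of 924 cases, 11.5% (9.57 to 13.7%), and starts that faced the end of a gene on the other strand in 12 of 197, 6.09% (3.52 to 10.3%), so that the intervals overlap. The 36 starts with ends on both strands had 10 (27.8%, 15.8 to 44.0%). In tandem pairs the share was higher at gaps of up to 1000 bp. It was 19.4% (19 of 98) where the end lay at most 250 bp from the start, 15.5% at 251 to 500 bp, 17.4% at 501 to 1000 bp, 5.71% at 1001 to 1500 bp and 4.70% (11 of 234) at 1501 to 2000 bp. On the opposite strand the counts were 0 of 11, 0 of 16, 3 of 50, 2 of 45 and 7 of 75 over the same distances, too few to give an order. Since a region must reach within 1 kb of the start, ends over 1 kb away could count only through a region that extends past the gene end or lies in another gene.

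Lcat and Fam83e had regions over the whole window of such a start. Lcat codes for the enzyme that esterifies cholesterol in plasma lipoproteins. Its region spanned chr8:108465201-108470200, covering the last part of Slc12a4, a potassium-chloride cotransporter that ends 208 bp before Lcat, the gap, and 54.3% of Lcat. At Prr22 the region at chr17:56908001-56910000 began 1672 bp upstream in Dus3l, a tRNA-modifying enzyme gene that ends 158 bp before the start, and stopped 327 bp inside Prr22. The regions of Lcat and Prr22 ran through the gap without a break. The region at chr7:52973801-52978400 joined Rpl18 to Fam83e across 377 bp, and that at chr14:70116801-70121400 joined Chmp7, of the membrane-cutting ESCRT machinery, to R3hcc1 across 503 bp.

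Only 6 of the 131 regions in this arrangement began in an earlier bin and held the start base, and the gap stayed free in cases such as Dyrk1b, a protein kinase gene. There a region of the full 5000 bp at chr7:28959201-28964200 covered Fbl, the methyltransferase of small nucleolar ribonucleoproteins, and ended 288 bp before the start of Dyrk1b. Amh, the anti-Müllerian hormone gene, had a region at chr10:80263001-80268000 that lay over the splicing factor gene Sf3a2 and took in 8 bases of Amh itself. The 2 genes are thus near a region through their neighbour.

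Regions elsewhere in the neighbour were compared with regions at the start. Where the body of the nearby ending gene, beyond 1 kb of the start, had a region, 16.4% of starts had a region (79 of 482), and where it did not, 7.26% (49 of 675), a difference of 9.13 points (5.38 to 13.1). Where the gene's own body was marked as well, the intervals overlapped, with 11.4% (8.08 to 15.8%) for a marked and 8.62% (5.65 to 12.9%) for an unmarked neighbour, and with bodies beyond 3 kb the order turned, with 7.52 and 8.33%. For starts inside another gene the shares were 9.35% with a marked host and 2.55% without, a difference of 6.80 points (4.86 to 8.87). A region that reached within 1 kb of the start was not counted as marking a body, however far it went on, so the bodies were judged by other regions, which come from the same list and libraries. A body covered by such a region alone therefore counts as not marked, which puts some starts with a region into that class.

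Starts inside another gene had regions on either strand, in 40 of 620 cases (6.45%, 4.77 to 8.67%) where host and guest read the same way and in 80 of 1580 (5.06%, 4.09 to 6.26%) where they read in opposite directions. The intervals overlap. Rsc1a1, a regulator of membrane transporters, lies whole in the region at chr4:141239401-141242200, together with the part of its host Ddi2, a protease gene, around it. Lime1, an adaptor of lymphocyte signalling, starts inside Zgpat, and the region at chr2:181113201-181116400 covered 45.6% of Lime1 and 1582 bp upstream of it. At Mpv17, a mitochondrial inner membrane protein, the region at chr5:31459401-31463800 reached 3274 bp into Gtf3c2, a subunit of the RNA polymerase III factor TFIIIC. The start of Ndufb8, of respiratory complex I, was crossed by a region at chr19:44626601-44628400, but there the host is a second annotated record of the same symbol. Gene models with Gm, AC or Rik names were frequent in this arrangement, with 31.5% of all its starts, and 38.6% of its regions were nearest to such a model. With neighbours limited to genes with symbols of their own, a rule added after the data were seen, the difference from isolated starts was 5.44 points (4.37 to 6.70).

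At divergent starts the start base itself lay in a region in 0.144% of cases, beside 0.193% of isolated starts. Each region was placed at its nearest start, so one in the partner's body counts as downstream of the partner. Under this rule all but 1 of the 24 regions nearest a divergent start lay wholly downstream. Counted by starts, genic positions were listed on both sides, 0.720% at 900 bp upstream (10 of 1389) and 1.24% at 900 bp downstream (17 of 1376). In all, 1 region covered both starts of a pair. It was the region at chr17:24854601-24855600, over the starts of Rnf151, a ring finger protein gene, and Rps2, a protein of the small ribosomal subunit, which lie 59 bp apart. Nip7, a 60S ribosome assembly factor, and Cog8, a Golgi tethering protein, have starts 188 bp apart, and the region at chr8:109580801-109583400 began 24 bp into Nip7. In the pair of Hnrnpa1, an RNA-binding splicing protein, and Cbx5, the heterochromatin protein HP1 alpha, the region at chr15:103071001-103072400 began 56 bp into Hnrnpa1. The starts of Eef1b2, a translation elongation factor, and Ndufs1, of complex I, are 3 bp apart, and the region at chr1:63223601-63226400 began 202 bp into Eef1b2 and covered 76.5% of it.

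The share among divergent starts differed with gene length. Divergent genes of at most 5 kb had a region in 25 of 196 cases (12.8%, 8.79 to 18.2%) and longer ones in 16 of 1197 (1.34%, 0.824 to 2.16%). With the partner marked the share was 3.49%, and without it 1.98%, a difference of 1.52 points whose interval (-0.399 to 3.20) includes 0. That difference turned to -1.64 points (-3.64 to 0.159) when the body was counted beyond 3 kb.

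**Figure D4:**
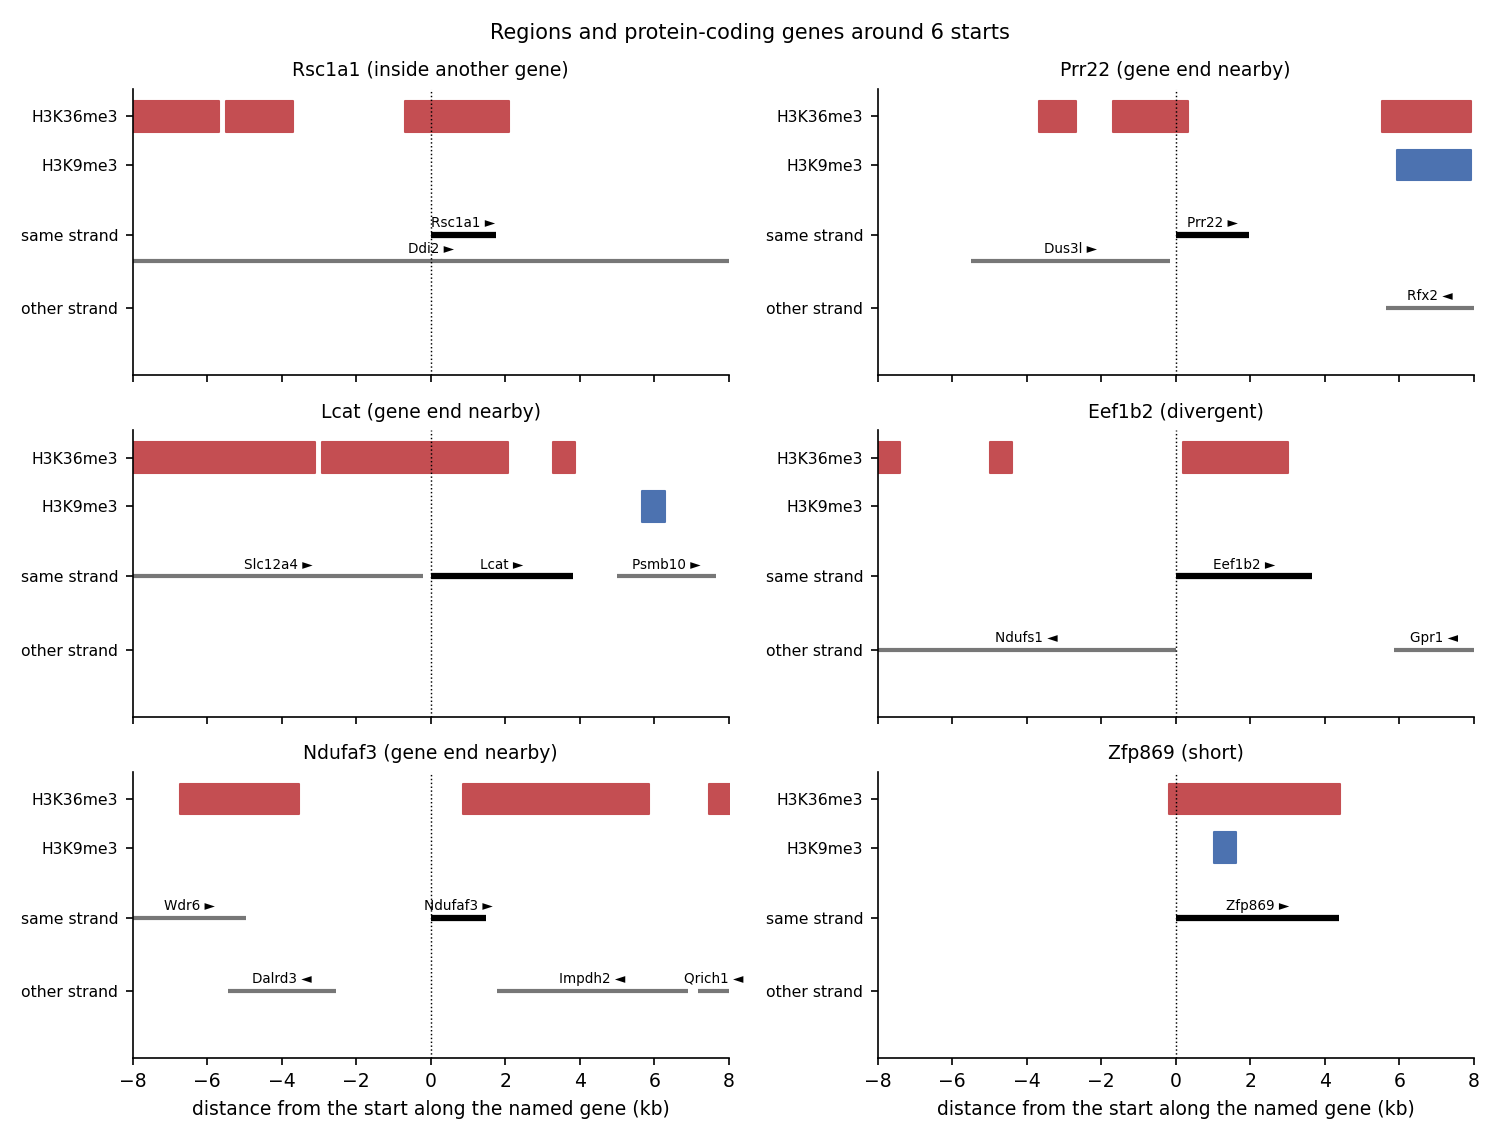
Regions of H3K36me3 (red) and H3K9me3 (blue) and protein-coding genes on the strand of the named gene or on the other strand, within 8 kb of 6 starts, drawn to scale in kb along the named gene, which is in black; arrowheads give the reading direction. At Lcat and Prr22 the region runs from the upstream gene across the start, at Eef1b2 it begins 202 bp downstream of it, and at Zfp869 it covers the whole gene.

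Short genes, in any arrangement, had a region at the start in 253 of 5555 cases (4.55%, 4.04 to 5.13%) and longer genes in 232 of 15863 (1.46%, 1.29 to 1.66%). Genes with a region had a median length of 4.76 kb, and all genes one of 15.5 kb. The share was highest at 2 to 5 kb, with 7.20% (6.24 to 8.30%), and lower on both sides, with 1.43% up to 1 kb, 4.01% at 1 to 2 kb, 3.45% at 5 to 10 kb and 0.307% above 100 kb. The shortest genes seldom had a listed region at all, with any in 1.43% of those up to 1 kb, 26.1% of those of 2 to 5 kb and 46.7% of those of 10 to 20 kb.

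Among genes with any listed region, the share with a region at the start was lower in each longer class up to 100 kb. It was 76.9% up to 1 kb (20 of 26), 59.2% at 1 to 2 kb, 25.4% at 2 to 5 kb, 7.92% at 5 to 10 kb and 2.76% at 10 to 20 kb. A gene of at most 1 kb lies wholly within the start window, so there the share is set by construction and falls below 100% through wider regions only. In longer classes the fixed window is a smaller part of the gene, which by itself lowers this share. How much of the decline comes from this was not tested. In 127 of the 253 short genes with a region, 0.5 or more of the gene was covered, and in 18 all of it. The direction for short genes depended on which starts were counted. When a gene counted if any of its protein-coding transcript starts had a region, the share of genes was 2.50 points lower for short than isolated genes (-3.15 to -1.81). This is a share of genes and not of transcript starts. A gene with more transcript starts has more windows in which a region can count, which by itself can raise its chance of counting. The part of this in the change of direction was not tested.

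**Figure D5:**
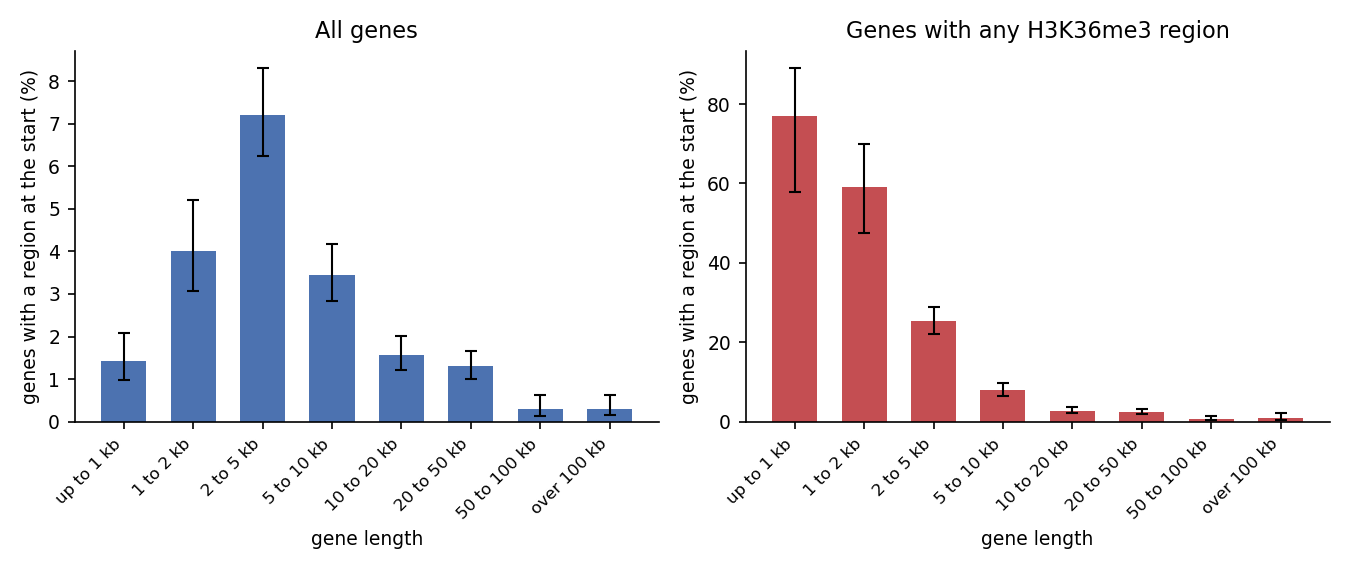
Percentage of genes with a region of at most 5 kb within 1 kb of the start by gene length, over all autosomal protein-coding genes (left) and over genes with an H3K36me3 region anywhere in them (right), with 95% Wilson intervals. The share over all genes is highest at 2 to 5 kb (7.20%), while among genes with any region it falls from 76.9% up to 1 kb to 0.654% at 50 to 100 kb and is 1.04% above 100 kb.

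Among short genes without a neighbour that placed them in another arrangement, Zfp869 had the most bases near its start, and the region there held all 4393 bp of it. Zfp936 at chr7:50442401-50446000 and Dux at chr10:57685001-57688600 were likewise covered whole. Zinc finger and Dux genes exist in many similar copies, to which reads cannot always be assigned singly. Among genes of at most 2 kb lying whole in a region, the longest were Gpank1 (1855 bp, chr17:35259801-35261800), Rsc1a1 (1749 bp), Ifitm5 (1277 bp, chr7:148134801-148136200), of the interferon-induced transmembrane family, and Gtsf1l (824 bp, chr2:162912601-162913600). Sox2, a pluripotency factor, had a region over 72.6% of its 2457 bp that began downstream of the start, and Utf1, another ES cell gene, one over 61.3%.

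Convergent genes, whose 3′ ends meet within 2 kb or overlap, had a region at the start in 129 of 3313 cases (3.89%, 3.29 to 4.61%), and other genes in 1.97% (1.77 to 2.18%). The share was 11.5% (9.22 to 14.3%) for convergent short genes and 3.71% for other short genes, 2.21% for convergent longer genes and 1.31% for other longer genes. Ndufaf3, an assembly factor of complex I, shows how a region over 2 meeting ends reaches a start. The region at chr9:108463801-108468800 covered 40.9% of Ndufaf3 from 873 bp after its start and went on over Impdh2, an enzyme of guanine nucleotide synthesis, on the other strand. Smcr8 (chr11:60591801-60596800) and D2Wsu81e (chr2:30028201-30033200) had regions of the same full width that began 774 and 779 bp after their starts. That of D2Wsu81e, a gene of 5013 bp, ran past its 3′ end. That of Smcr8 stopped 5773 bp after the start of a gene of 10763 bp, and so did not reach the meeting ends.

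Isolated starts had the lowest share, and 24 of their 90 regions held the start base, 22 of them by beginning in its bin. Among these, at Fat1 the region at chr8:46035401-46039400 ran from 161 bp upstream to 3838 bp downstream, at Sipa1l2 that at chr8:128012601-128016800 from 190 bp upstream, and at Sp140, a nuclear body protein gene, that at chr1:87496801-87498000 from 152 bp upstream. Gnas, at an imprinted locus, differed from these, as 3220 of the 4000 bp at chr2:174106601-174110600 lay upstream of its annotated start. Isolated starts with a marked body beyond 1 kb had a region in 1.38% of cases (67 of 4862) and those without in 0.251% (19 of 7565). The difference was 1.13 points (0.803 to 1.51).

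Signs of an incomplete annotation at the start were more frequent in these cases over all arrangements. Of the 92 starts inside a region, 25.0% (17.3 to 34.7%) were annotated with coding sequence at their first base, so without any untranslated leader, against 8.65% (6.26 to 11.8%) of the 393 other starts with a region and 12.0% (11.6 to 12.5%) of all starts. At short genes it was 5 of 15, or 33.3%, beside 36.9% of all short-gene starts, so that the difference was not seen there. Gene models with Gm, AC or Rik names made up 30.4%, 14.5% and 15.1% of the 3 sets. At least 1 of these signs, or a transcript tag for an incomplete start, was present at 43.5%, 17.8% and 22.5%. Their part in the low CG counts was not tested.

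Ribosomal protein genes, which are short and among the most transcribed in any dividing cell, had a region at the start in 47 of 79 cases (59.5%, 48.5 to 69.6%), beside 2.26% of all starts. In those of at most 5 kb it was 65.6% (40 of 61), and in other short genes 3.88% (213 of 5494). Among short genes with any H3K36me3 region the shares were 71.4% (40 of 56) and 27.1% (182 of 672). A median of 80.1% of the gene was covered in the 47 genes. The regions lay wholly downstream of the start in 44 of the 47, as in Rpl23, where 96.9% of 4911 bp was covered, and held the start base at Rpsa, Rps2 and Rpl10a. Ribosomal protein genes have many processed copies elsewhere in the genome, which share reads with their exons. Without these 79 genes the difference of short from isolated starts was 1.20 points (0.800 to 1.67), again as an alternative added after the data were seen.

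Other families had lower shares. Mitochondrial ribosomal proteins had such starts at 4 of 77 genes (5.19%, 2.04 to 12.6%, Mrps2, Mrpl12, Mrpl28 and Mrpl49), complex I at 5 of 41 (12.2%, 5.32 to 25.5%, Ndufs1, Ndufaf3, Ndufa7, Ndufs8 and Ndufb8) and the proteasome at 2 of 51 (3.92%, with an interval up to 13.2%, Psmc4 and Psmb6), although 77.9%, 80.5% and 80.4% of these genes had a region somewhere, beside 35.2% of all genes. At Ndufs1 and Ndufa7 no base of the gene itself was covered, and the region lay in the divergent partner, Eef1b2 or Rps28. Zinc finger genes of the Zfp series had 16 of 362 (4.42%, 2.74 to 7.06%). Immediate early genes, induced within minutes by growth signals, had 2 of 12 (16.7%, 4.70 to 44.8%), Klf2 and Ier2, and H3K36me3 covered 97.4% of Klf2. The intervals of complex I, the Zfp series and the immediate early genes lie above the 2.26% of all starts.

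Olfactory receptor genes, silent outside the nose, had 1 of 1106, Olfr90. Replication-dependent histone genes had 0 of 67, Hox genes 0 of 40 and clustered protocadherins 0 of 24, which allow shares of up to 5.42, 8.76 and 13.8%. These intervals include the 2.26% of all starts. The 7 methyltransferase and 6 demethylase genes of H3K36 had none, nor did the 7 genes for H3.3 and its chaperones, but 0 of 7 allows a share of up to 35.4%, so that the interval of each set includes the 2.26% of all starts. A region lay elsewhere in 6, 5 and 6 of them, where 35.2% of all protein-coding genes had one somewhere. Of the 10 genes for H3K36me3 readers, Phf1, a subunit of Polycomb complexes, had regions near its start, of which 1 lay in the ending neighbour Kifc5b and the other covered most of Phf1.

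Small nucleolar RNA genes, which guide modification of ribosomal RNA from within introns of host genes, lay in 25 of the 475 regions (5.26%, 3.59 to 7.65%) and in 75 of the 29082 other regions (0.258%, 0.206 to 0.323%). The difference was 5.01 points (3.33 to 7.40). Any noncoding gene was overlapped by 13.7% of the regions and 4.66% of the others. Among isolated starts, the region near Zbtb37 at chr1:162965801-162967400 overlapped Gas5, a noncoding host of small nucleolar RNAs. It ended 821 bp upstream and covered no base of Zbtb37 itself. The region near Slc3a2, the heavy chain of amino acid transporters, at chr19:8798601-8801000 likewise overlapped the noncoding host Snhg1.

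The regions close to starts were wider than the other regions of at most 5 kb, with a median of 1400 bp (quartiles 800 to 2600) against 1000 bp (600 to 1600), and stood further from the next region, with a median gap of 1400 bp against 400 bp. A wider region touches a window of fixed size more easily, so the selection itself favours width. Its part in the difference was not tested. The regions close to starts also held more exonic sequence. Coding sequence took 49.2% of their 200 bp bins and introns 31.1%, where the other regions had 26.3% and 63.9%, a difference in coding sequence of 22.9 points (21.4 to 24.3). Untranslated regions took 14.2% against 6.28%. Median G+C content was 50.6% against 46.7%, and the ratio of observed to expected CpG was 0.259 against 0.221.

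The shares of starts with promoter and 3′ end motifs differed most from the background in short genes. In the window from 250 bases before to 50 after the start, on either strand, TATAAA was in 10.7% of the 485 starts and 13.5% of all starts, CCAAT in 43.3% and 37.6%, GGGCGG in 45.8% and 43.7%, AATAAA in 17.7% and 18.2%, and ATTAAA in 13.6% and 13.4%. Of the 103 short genes with a region, 59.2% (49.6 to 68.2%) held GGGCGG, against 18.3% of all short genes, while 13.6% and 29.3% held TATAAA and 12.6% and 32.7% AATAAA. At isolated starts these motifs were in larger shares of the 86 starts with a region than of all, with 16.3% (9.95 to 25.5%) and 9.94% for TATAAA and 22.1% (14.6 to 31.9%) and 14.8% for AATAAA. Inside another gene GGGCGG was in 29.1% (21.9 to 37.6%) of the starts with a region and 40.7% of all. Such a match is a description and not a binding site. The short-gene sets also differ in composition. Ribosomal protein genes were 26 of the 103 with a region and 42 of all 4198. Olfactory receptor genes were 1050 of the 5555 short genes in any arrangement. The part of this in the motif shares was not tested.

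H3K9me3 regions overlapped 80 of the 475 regions (16.8%, 13.7 to 20.5%) and 2472 of the other 29082 (8.50%, 8.19 to 8.83%), a difference of 8.34 points (5.23 to 12.0) that had the same sign on 14 of 19 autosomes. The overlap was 31.1% at short genes, 26.7% at isolated starts, 11.0% inside another gene, 8.33% at divergent starts and 6.11% with a gene end nearby. The other regions lie away from starts, where H3K9me3 was listed less often. Counted by starts, a comparison added after the data were seen, an H3K9me3 region of at most 5 kb lay within 1 kb of 17.1% (14.0 to 20.7%) of the 485 starts with a region and 19.1% of the starts without one, a difference of -2.03 points (-5.17 to 1.61). Within arrangements this difference was 12.9 points (5.16 to 22.3) at short genes, 12.8 (2.06 to 27.8) at divergent starts, 1.41 (-6.29 to 11.4) at isolated starts, -6.28 (-10.7 to 0.196) with a gene end nearby and -8.68 (-13.4 to -1.85) inside another gene. Regions of 600 bp, the narrowest, overlapped in 16.7% of cases against 7.24%, a difference of 9.42 points (2.93 to 18.8). Those of 2200 to 5000 bp overlapped in 17.1% against 11.9%, a difference of 5.19 points (0.117 to 11.7) whose interval nearly reaches 0. At Sp140 the 2 marks covered nearly the same bases, and at Zfp869 H3K9me3 lay within the H3K36me3 region. Without the regions nearest to a Gm, AC or Rik gene model the difference was 4.90 points (1.85 to 8.67), with overlap of 0.5 or more of each region 4.01 points (1.98 to 6.73), and with the starts of all transcripts 2.39 points (0.984 to 3.97). Whether both marks were on the same molecules cannot be told from lists that pool 2 genotypes.

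Between chromosomes the share of starts with a region ran from 0.742% (5 of 674) on chromosome 16 to 4.31% (47 of 1091) on chromosome 17. Just inside the width limit were D2Wsu81e, Dyrk1b and Lcat with regions of 5000 bp, and just outside it Scamp3, Wbscr27 and Rps3 with regions of 5200 bp. Nearest to the distance limit were Dmpk and Pitpnm1 at 998 bp and Cdk9 at 996 bp inside it, and Zcchc14 at 1001 bp, Uap1l1 at 1002 bp and Exoc8 at 1005 bp outside it.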

How the data were processed

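ChIP-seq of H3K36me3 (antibody ab9050) and H3K9me3 (ab8898) was done in WT and G34R mouse ES cells, with 1 library for each mark and genotype, so no p-value was computed. The authors aligned reads to mm9 with Bowtie 1.0.0, removed duplicates, counted them in 200 bp bins over the genome with SeqMonk, scaled them and matched their distributions. Of the bins that overlap UCSC genes they kept those above the 95th percentile in either genotype and merged neighbouring bins with BedTools 2.20.1. The deposited lists hold a chromosome, a start and an end for each region and no count, score or signal, so depth is unknown. The stated exclusion of merged regions over 500 bp does not match the lists, whose narrowest region is 600 bp wide, and they were used as deposited.

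Regions were compared in Python 3.11.15 (numpy 2.4.6) with GENCODE vM1 genes, and sequences were read from NCBIM37 with pyfaidx 0.9.0.4. A start had a region if at least 1 base of it lay within 1 kb of the gene's outermost start. Shares carry 95% Wilson intervals and differences Newcombe intervals. The scripts were tested on simulated data. Named genes were those with the most bases near the start in each arrangement (4 each), the widest or longest cases for divergent, short and convergent genes, and those beside each limit, leaving out Gm, AC and Rik symbols, other genes being named as examples after their values were seen. The regions, lists and tests were chosen with earlier results of these data known. Alternatives covered the window, width, overlap, start and neighbour definitions. Wider H3K36me3 regions and chromosomes X and Y were left out. Some items that met these rules are not reported here.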

Additional observations from a re-analysis of the deposited data

How the results depend on the processing

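No paired analysis was possible because each mark has 1 library per genotype and each list pools both. Of 99 values recomputed under other settings, 54 stayed within the counting interval or within 1.5 times the reported count, and 3 changed sign. Of the 68 differences from isolated starts, 65 stayed above 0 with their whole interval. In the following, the 4 differences from isolated starts are in percentage points and in the order inside another gene, gene end nearby, divergent and short. The causes of these shifts were not tested.

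A window of 500 bp gave 228 regions, 1.07% of starts and differences of 2.82, 3.98, 0.731 and 0.845. A window of 2 kb gave 1620 regions, 7.98% of starts and differences of 10.1, 26.7, 14.5 and 2.62, so that divergent starts came above those inside another gene. Regions of at most 2000 bp numbered 311, at 1.46% of starts, with differences of 3.88, 6.64, 0.706 and 1.06. Without a width limit the share was 2.73%. The starts of all protein-coding transcripts gave 1764 regions, 6.49% of genes, a divergent difference of 4.62, a short difference of -2.50, and an H3K9me3 difference of 2.39 points. An overlap of at least 200 bp gave 1.69% of starts, with 7.35 for gene ends nearby and 1.21 for divergent starts. Merging regions within 2 kb first gave 272 regions, 1.42% of starts and differences of 2.97, 5.68 and 1.28 for the first 3 arrangements.

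Gene ends within 1 kb differed by 15.1, and within 5 kb by 6.19, with 0.531 for divergent and 1.19 for short starts in the latter case. With short genes of at most 3 kb their difference was 0.812, and with neighbours of every gene type that of gene ends was 8.68. The H3K9me3 difference was 4.01 points with overlap of 0.5 or more of each region. With the body beyond 3 kb, the divergent neighbour difference was -1.64. Untranslated bins differed by 16.5 points when every touched part was counted.

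Among settings added after the data were seen, windows wholly in genes gave -1.69 for divergent (0 of 19 starts) and 0.829 for short starts, leaving out ribosomal protein genes gave 1.20 for short starts, and leaving out gene models gave 4.90 points for H3K9me3. Regions carry no depth, so a start without a region is not a start without H3K36me3. With 1 library per group, nothing here measures the spread between cultures.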
